A study of Rattus norvegicus with 24 samples.

Results

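The genes that carry glucose from the blood to pyruvate, lactate and glycogen were followed in the non-infarcted left ventricle of rats 4 weeks after myocardial infarction (MI), with and without thyroxine (T4). The set was a fixed list of 41 genes for glucose transporters, glycolytic enzymes, lactate handling, pyruvate dehydrogenase and glycogen enzymes. Of these, 37 were matched to a probe, out of 13337 genes with a named probe, and each gene is given by its probe with the highest mean signal. The other 4 (Hk1, Pgam1, Pdha1 and Gys1) were not analysed here.

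Glucose enters heart muscle cells through facilitative transporters, is trapped as glucose 6-phosphate by hexokinase, and is then either stored as glycogen or split to pyruvate by glycolysis. Phosphofructokinase makes the committed step of glycolysis, and pyruvate dehydrogenase decides whether pyruvate is oxidized in mitochondria or turned into lactate. The adult heart lives mainly on fatty acids, and greater use of glucose is a known feature of fetal, hypertrophied and failing hearts. Several steps are made by paralogous enzymes, 1 prominent in adult striated muscle and others prominent in liver, brain or many tissues.

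Female Sprague-Dawley rats, 3 months old by the labels, formed 3 groups of 4. Sham rats went through the operation with the coronary suture left loose and carried a placebo pellet. MI rats had the left anterior descending coronary artery ligated and carried a placebo pellet, and MI+T4 rats had the same ligation and a subcutaneous T4 pellet of 3.3 mg made to release over 60 days. No group received T4 without infarction, so the comparison of MI+T4 with Sham holds infarction and hormone together. By the methods, RNA came from the frozen basal slice of the ventricle, and rats with very small or very large infarcts had been removed before 4 rats per group were drawn.

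Each rat was hybridized to 2 Illumina RatRef-12 arrays, by the methods 1 on each of 2 BeadChips. The labels give only technical replicates 1 and 2, and these are read here as the first and second BeadChip. The 2 arrays were averaged for the values per rat. The deposited signals were read on a log2 scale, on which array medians lay between 7.81 and 7.82. In 24 of 24 arrays, the most similar array was the second one of that rat. Arrays give no read depth, and the precision of group differences is limited by the 4 rats per group, with 2 technical arrays each. Detection calls could not be tied to the samples, so whether dim members such as Pfkfb3, with 7.42 to 7.64 over the 12 rats, lay above background was not tested. Signals of different probes are not compared as levels. The cardiomyocyte markers were present in every rat, with a summed linear level between 0.942 and 1.06 of the Sham mean and 0 of 8 changed. In bulk tissue, fewer cells of a type and less RNA per cell cannot be told apart.

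Groups were compared by limma over all 22523 probes, with the rat as block, and a gene is said to have risen or fallen where its Benjamini-Hochberg adjusted p over all probes was under 0.05. SE and adjusted p come from this fit unless rat means are named. The fit used a single within-rat correlation of 0.243 for all probes, while the median over the members was 0.751, so the SEs and p-values of members can be too small. When each rat entered as 1 mean, 0 members passed in any comparison, beside 0% of all probes between MI and Sham and between MI+T4 and MI and 0.00444% between MI+T4 and Sham. At an unadjusted p under 0.05 on rat means, limma gave 12 members between MI and Sham (32.4%, beside 11.4% of probes), 3 between MI+T4 and MI (8.11% beside 5.45%) and 10 between MI+T4 and Sham (27.0% beside 7.67%). This limit holds for every gene said below to have risen or fallen. The rats of a group are separate animals.

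After MI, 3 members rose and 1 fell. The genes that rose were Pfkl and Pfkp, the liver-type and platelet-type phosphofructokinases, and Slc16a1, the monocarboxylate transporter MCT1 that moves lactate and pyruvate across the membrane. The gene that fell was Pfkfb2, the heart-type enzyme that makes fructose 2,6-bisphosphate, an activator of phosphofructokinase. These 4 of 37 measured members are 10.8%, beside 3.61% of all probes called between MI and Sham. By direction, 8.11% of members rose beside 1.89% of probes, and 2.70% fell beside 1.72%.

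The rest of the set lay mostly a little under Sham without passing the test. Of the 37 members, 30 (81.1%) had a lower mean in MI than in Sham, beside 52.8% of all probes. The median log2 difference of the members was -0.10, with a range from -0.33 to 0.40, and the median over all probes was -0.0044. At an unadjusted limma p under 0.05 there were 3 members higher and 13 lower (8.11% and 35.1%, beside 6.94% and 7.38% of probes), which together are 43.2% of members beside 14.3% of probes. In 8 members (21.6%) the 4 MI rats and the 4 Sham rats did not overlap, beside 5.80% of probes. Pfkl and Pfkp were the higher ones (5.41% beside 2.63%), and Slc2a1, Pfkfb2, Ldhb, Pdhb, Pdk2 and Pygb the lower ones (16.2% beside 3.17%). The number of members called depended on single rats. It was 1 without Sham rat 3 or without MI rat 8, beside 2.12% and 0.857% of probes, 8 without MI rat 6, beside 5.55%, and 9 without MI rat 7, beside 6.99%. In these fits the share of all probes called was larger with 8 or 9 members called than with 1. The share did not follow the members in every fit. Without Sham rat 2 there were 4 members beside 1.91% of probes, a smaller share than the 2.12% without Sham rat 3. The 8 added Pfkm, Pkm, Pdp1 and Pygb to the original 4, all lower, and the 9 added Pfkm, Pgam2, Pkm, Pdk1, Pdk2 and Pgm1, all lower, and lost Slc16a1.

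**Figure D1:**
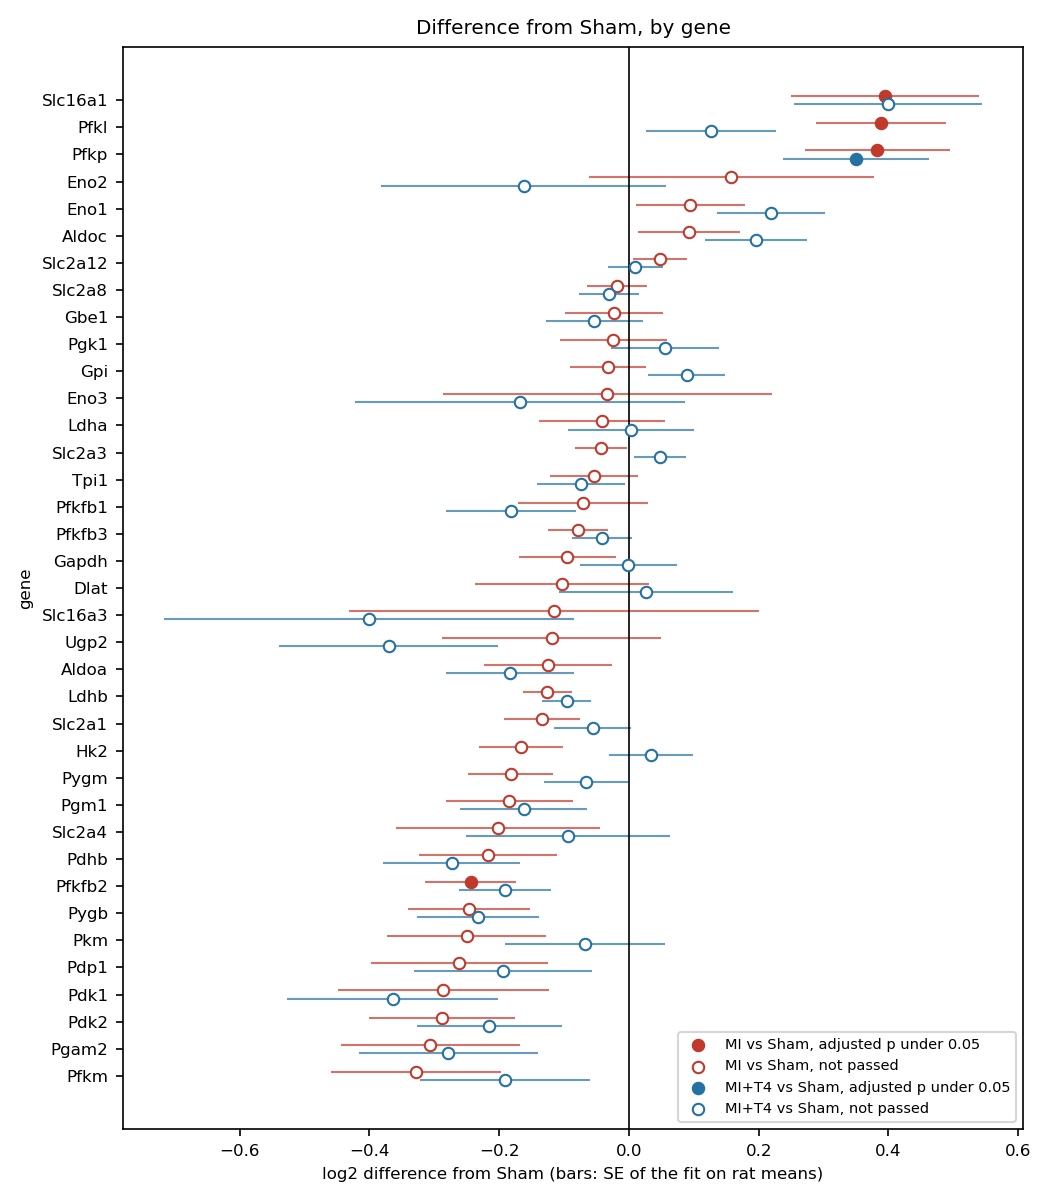
Log2 difference from Sham of the 37 members for MI (red) and MI+T4 (blue), sorted by the MI value. Filled circles passed the adjusted limit of 0.05 in limma and open circles did not; bars are the SE of the fit on rat means, which is the wider error. Slc16a1, Pfkl and Pfkp stand at the top with MI values of 0.40, 0.39 and 0.38, and Pfkm at the bottom with -0.33.

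Phosphofructokinase, the committed step, showed opposite signs between its isoforms after MI. The liver-type gene Pfkl and the platelet-type gene Pfkp rose, while the mean of Pfkm, the muscle-type gene, was lower without passing the test. The windows upstream of their starts are shown because these 3 paralogues differed in direction, and the windows of Slc16a1 and Pfkfb2 because these were the other genes that changed. Each run is the 250 bases before the start that RefSeq gives for 1 transcript of the gene in GRCr8, read 5′ to 3′ along the strand of the gene. Capitals mark ACGTG or its reverse complement CACGT, the core of sites read by hypoxia-inducible factors and other bHLH factors, and AGGTCA or TGACCT, the half-site read by thyroid hormone receptors and other nuclear receptors.
Pfkl, chr20:10663715-10663964, plus strand: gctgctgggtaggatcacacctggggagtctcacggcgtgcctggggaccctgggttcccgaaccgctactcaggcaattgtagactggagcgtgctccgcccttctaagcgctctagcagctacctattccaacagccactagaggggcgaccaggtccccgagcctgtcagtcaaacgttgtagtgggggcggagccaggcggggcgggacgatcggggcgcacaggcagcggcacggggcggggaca
Pfkp, chr17:68639563-68639812, plus strand: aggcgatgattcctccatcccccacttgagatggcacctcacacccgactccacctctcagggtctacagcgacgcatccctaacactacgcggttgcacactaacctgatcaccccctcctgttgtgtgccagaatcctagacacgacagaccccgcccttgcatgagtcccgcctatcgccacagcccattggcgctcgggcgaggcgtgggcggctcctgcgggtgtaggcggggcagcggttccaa
Pfkm, chr7:131113849-131114098, plus strand: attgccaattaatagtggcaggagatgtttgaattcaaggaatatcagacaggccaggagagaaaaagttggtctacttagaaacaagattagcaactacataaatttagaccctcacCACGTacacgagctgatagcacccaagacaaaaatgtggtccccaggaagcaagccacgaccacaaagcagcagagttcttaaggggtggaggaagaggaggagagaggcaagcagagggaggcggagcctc
Slc16a1, chr2:194812410-194812659, plus strand: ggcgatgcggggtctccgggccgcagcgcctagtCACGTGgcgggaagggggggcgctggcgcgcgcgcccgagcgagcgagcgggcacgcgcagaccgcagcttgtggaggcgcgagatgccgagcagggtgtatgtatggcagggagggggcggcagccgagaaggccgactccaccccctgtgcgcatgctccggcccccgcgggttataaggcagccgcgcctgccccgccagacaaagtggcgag
Pfkfb2, chr13:44726972-44727221, minus strand: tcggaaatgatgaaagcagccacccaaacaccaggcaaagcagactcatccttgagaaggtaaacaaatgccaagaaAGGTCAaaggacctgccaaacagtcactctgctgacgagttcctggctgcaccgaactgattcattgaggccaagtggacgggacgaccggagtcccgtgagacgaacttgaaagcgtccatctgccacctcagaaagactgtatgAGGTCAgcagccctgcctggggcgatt
The windows of Pfkl and Pfkp held 0 matches to either motif. The Pfkm window held 1 match to ACGTG, and the Slc16a1 window held 1 CACGTG, which reads as ACGTG on both strands. The Pfkfb2 window held 2 matches to AGGTCA on the strand of the gene, 173 and 27 bases before the start. On both strands, ACGTG was found in 16.6% of the 33469 RefSeq windows of this length and AGGTCA in 14.1%. These matches are a description of the letters, and binding was not measured.

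The Pfkl signal was 8.84, 9.12, 8.96 and 8.88 in the Sham rats, 9.68, 9.19, 9.27 and 9.20 in the MI rats, and 9.12, 9.16, 8.98 and 9.04 in the MI+T4 rats. All 4 MI rats lay above all 4 Sham rats, with MI rat 5 far above the others, and all 4 MI+T4 rats lay below all 4 MI rats and overlapped with Sham. Pfkl was 1.31-fold higher in MI than in Sham (log2 difference 0.39, SE 0.080, limma adjusted p = 0.00611, n = 4 per group). On rat means the limma p was 0.00209, with an adjusted p of 0.222, and the exact two-sided permutation test gave p = 0.0286, the smallest that the 70 splits of 8 rats allow. Pfkl was the member that stayed called when any 1 of these 8 rats was left out, with adjusted p from 0.00335 to 0.0342. Its difference without MI rat 5 was 0.27. Between MI+T4 and MI the difference was -0.26 (0.834-fold), which did not pass (limma adjusted p = 0.310). Without MI rat 5 that difference was -0.145.

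Pfkp gave 10.90, 10.79, 10.59 and 10.65 in Sham, 11.12, 10.96, 11.10 and 11.28 in MI, and 11.14, 11.07, 11.36 and 10.76 in MI+T4. The MI rats all lay above the Sham rats, and 3 of the 4 MI+T4 rats did, with MI+T4 rat 8 inside the Sham range. Pfkp rose 1.30-fold in MI (log2 difference 0.38, SE 0.089, limma adjusted p = 0.0134) and 1.28-fold in MI+T4 (0.35, SE 0.089, limma adjusted p = 0.0427) against Sham. On rat means the adjusted p was 0.253 for MI and 0.436 for MI+T4, and exact two-sided permutation gave p = 0.0286 and p = 0.0857. The call in MI was lost without Sham rat 3 or 4 or MI rat 5 or 8 (limma adjusted p from 0.0507 to 0.103). The call in MI+T4 was kept only without Sham rat 1 and without MI+T4 rat 8 among the 8 rats of that comparison, and over all alternatives it was lost in 14 of 19. With quantile normalization its adjusted p was 0.0517, and with only the 2 compared groups in the fit 0.0552. Between MI+T4 and MI the difference of Pfkp was -0.03, with a 95% interval on rat means from -0.28 to 0.21.

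For Pfkm the rats read 13.55, 13.44, 13.40 and 13.10 in Sham, 12.80, 13.24, 13.28 and 12.86 in MI, and 13.20, 13.34, 12.91 and 13.27 in MI+T4. Rats MI 5, MI 8 and MI+T4 7 were lowest, and Sham rat 4 lay among the MI rats. The log2 difference between MI and Sham was -0.33 (SE 0.102, limma adjusted p = 0.0728), and it passed when Sham rat 4, MI rat 6 or MI rat 7 was left out.

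Within each rat the isoforms were also set against each other, as the difference of 2 log2 signals with the Sham mean put at 0, which is a description with no test. Pfkl minus Pfkm was -0.29, 0.10, -0.02 and 0.20 in the Sham rats, 1.31, 0.37, 0.42 and 0.76 in the MI rats, and 0.34, 0.24, 0.50 and 0.19 in the MI+T4 rats. Pfkp minus Pfkm was -0.01, -0.01, -0.17 and 0.19 in Sham, 0.96, 0.36, 0.47 and 1.06 in MI, and 0.58, 0.36, 1.09 and 0.13 in MI+T4. In both pairs all MI rats lay above all Sham rats, and the MI+T4 rats overlapped with both groups. Of the 9 isoform pairs examined, the only other pair without overlap against Sham was Aldoc minus Aldoa in MI+T4.

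**Figure D2:**
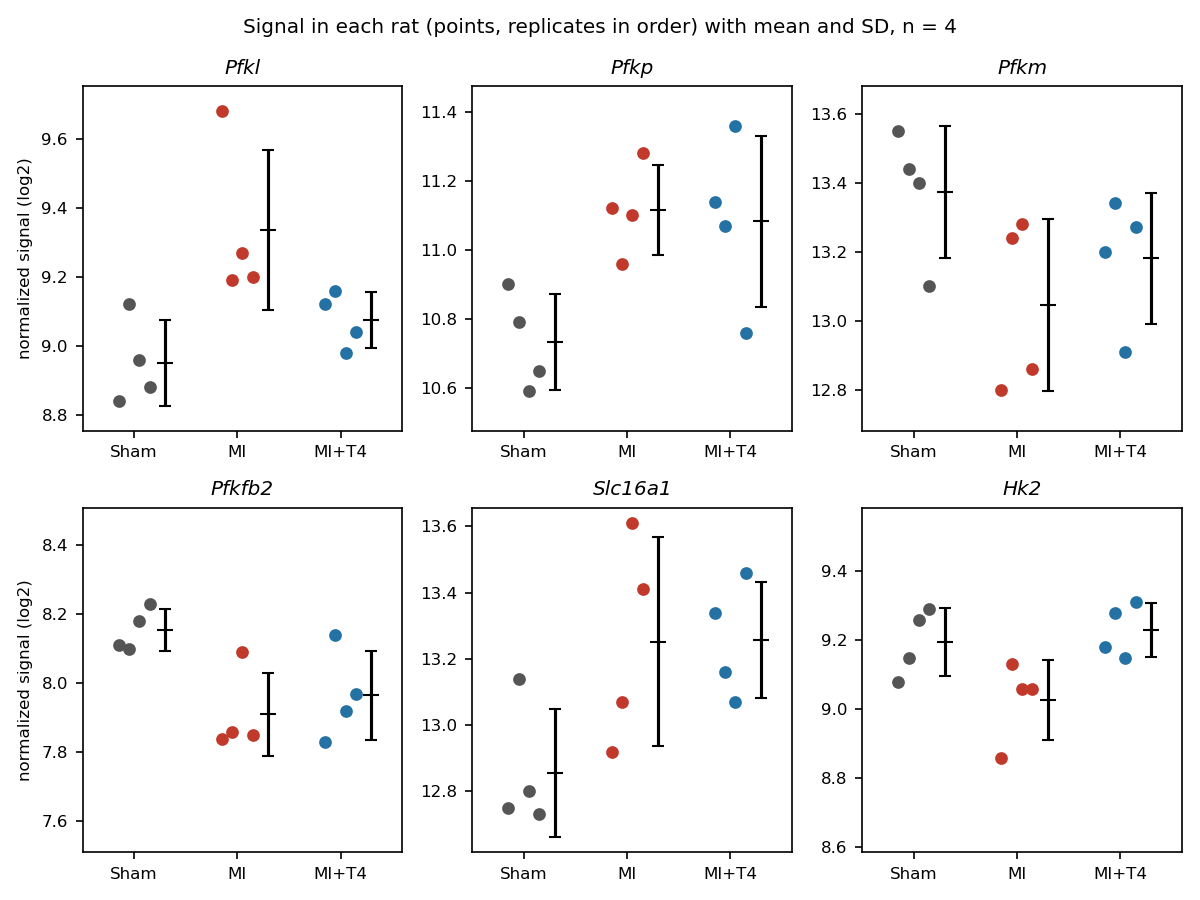
Normalized log2 signal of Pfkl, Pfkp, Pfkm, Pfkfb2, Slc16a1 and Hk2 in each rat, with points in replicate order and the mean with SD beside them (n = 4 per group). Each panel spans at least 1 log2 unit. The MI rats lie above all Sham rats for Pfkl and Pfkp, and the Pfkl points of MI+T4 lie between 8.98 and 9.16, under every MI rat.

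**Figure D3:**
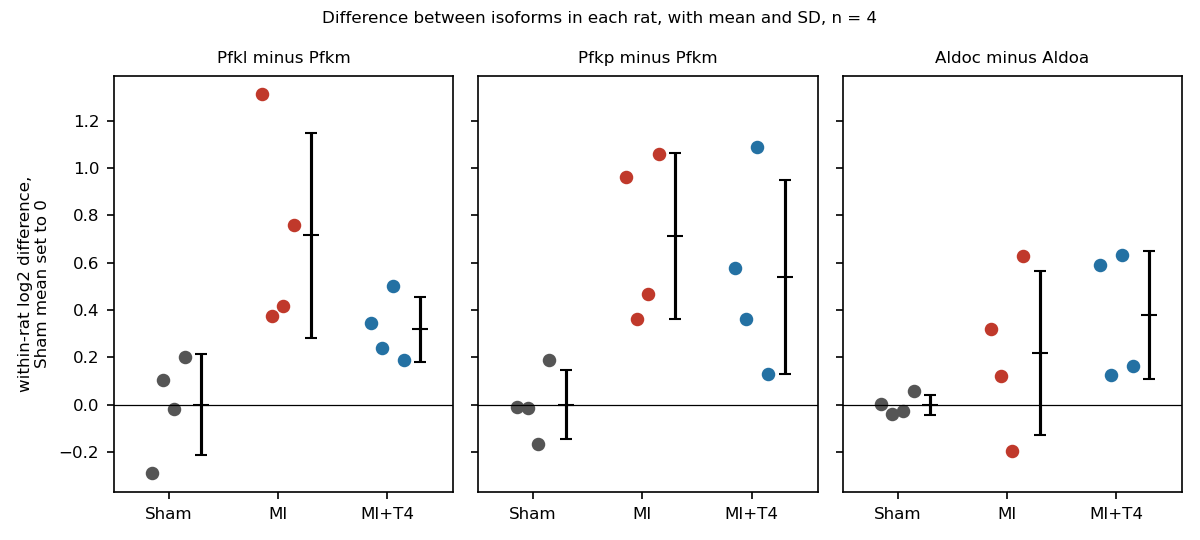
Within-rat log2 difference between isoforms, with the Sham mean set to 0, for 3 pairs of enzymes; points are rats and the bar gives mean and SD (n = 4 per group). For Pfkl minus Pfkm the MI rats lie between 0.37 and 1.31 and the Sham rats between -0.29 and 0.20.

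The bifunctional enzymes that set fructose 2,6-bisphosphate were represented by Pfkfb1, Pfkfb2 and Pfkfb3, known as the liver-type, heart-type and inducible forms. Pfkfb2 was 8.11, 8.10, 8.18 and 8.23 in Sham, 7.84, 7.86, 8.09 and 7.85 in MI, and 7.83, 8.14, 7.92 and 7.97 in MI+T4. MI rat 7 stood just under the lowest Sham rat, and the other 3 MI rats were more than 0.2 lower. These values, from 7.83 to 8.23, were not far above the array medians of 7.81 to 7.82. Whether Pfkfb2 lay above background was not tested. Pfkfb2 fell to 0.844-fold in MI (log2 difference -0.24, SE 0.062, limma adjusted p = 0.0220). On rat means the adjusted p was 0.250, exact two-sided permutation gave p = 0.0286, and the call was lost without Sham rat 3 or 4 or MI rat 5 or 8 (limma adjusted p from 0.0608 to 0.125). In MI+T4 the difference from Sham was -0.19 (limma adjusted p = 0.154). It passed without MI+T4 rat 6, whose 8.14 lay inside the Sham range (limma adjusted p = 0.0366). Pfkfb1 and Pfkfb3 did not pass in any comparison, and their log2 differences from Sham lay between -0.18 and -0.04.

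Lactate is made from and returned to pyruvate by the dehydrogenases Ldha and Ldhb, and crosses the membrane through MCT1 (Slc16a1) and MCT4 (Slc16a3). Slc16a1 read 12.75, 13.14, 12.80 and 12.73 in Sham, 12.92, 13.07, 13.61 and 13.41 in MI, and 13.34, 13.16, 13.07 and 13.46 in MI+T4. Only Sham rat 2 reached into the ranges of the infarcted groups. Slc16a1 rose 1.32-fold in MI (log2 difference 0.40, SE 0.104, limma adjusted p = 0.0292), with an adjusted p of 0.342 on rat means and p = 0.0857 by exact two-sided permutation. The call stood without Sham rat 2, MI rat 5 or MI rat 6, and was lost without any other of the 8 rats (limma adjusted p from 0.0910 to 0.166). In MI+T4 the difference from Sham was of like size, 0.40 (SE 0.104), and just missed the limit (limma adjusted p = 0.0506), which it passed without Sham rat 2 (limma adjusted p = 0.0196). The difference between MI+T4 and MI was 0.01, with a 95% interval on rat means from -0.31 to 0.32.

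MCT4 behaved otherwise. Slc16a3, the form known from glycolytic fibres and other lactate-exporting cells, was 8.46, 8.60, 9.14 and 10.09 in Sham, 8.87, 8.68, 8.64 and 9.63 in MI, and 8.60, 8.65, 9.00 and 8.43 in MI+T4. The spread within Sham (SD 0.739) was larger than any difference between groups, with -0.40 for MI+T4 against Sham (limma adjusted p = 0.567). That value was -0.06 without Sham rat 4 and -0.60 without Sham rat 1. Sham rat 4 and MI rat 8, the 2 highest, also had the highest summed leukocyte markers, 1.46 of the Sham mean each; the part of leukocytes in this spread was not tested.

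The dehydrogenases changed little. Ldhb, the form prominent in heart, was 15.95, 16.04, 15.95 and 15.89 in Sham, 15.79, 15.83, 15.86 and 15.83 in MI, and 15.81, 15.85, 15.89 and 15.89 in MI+T4. Every MI rat was under every Sham rat by a small margin, with a log2 difference of -0.13 (limma adjusted p = 0.155), and the arrays of a rat correlated at -0.23 for this probe. Ldha, the form prominent in skeletal muscle and glycolytic tissues, was 14.10, 14.11, 14.20 and 14.19 in Sham, 13.78, 14.30, 14.28 and 14.07 in MI, and 14.04, 14.23, 14.26 and 14.09 in MI+T4. Its groups overlapped fully, with differences from Sham of -0.04 and 0.00.

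**Figure D4:**
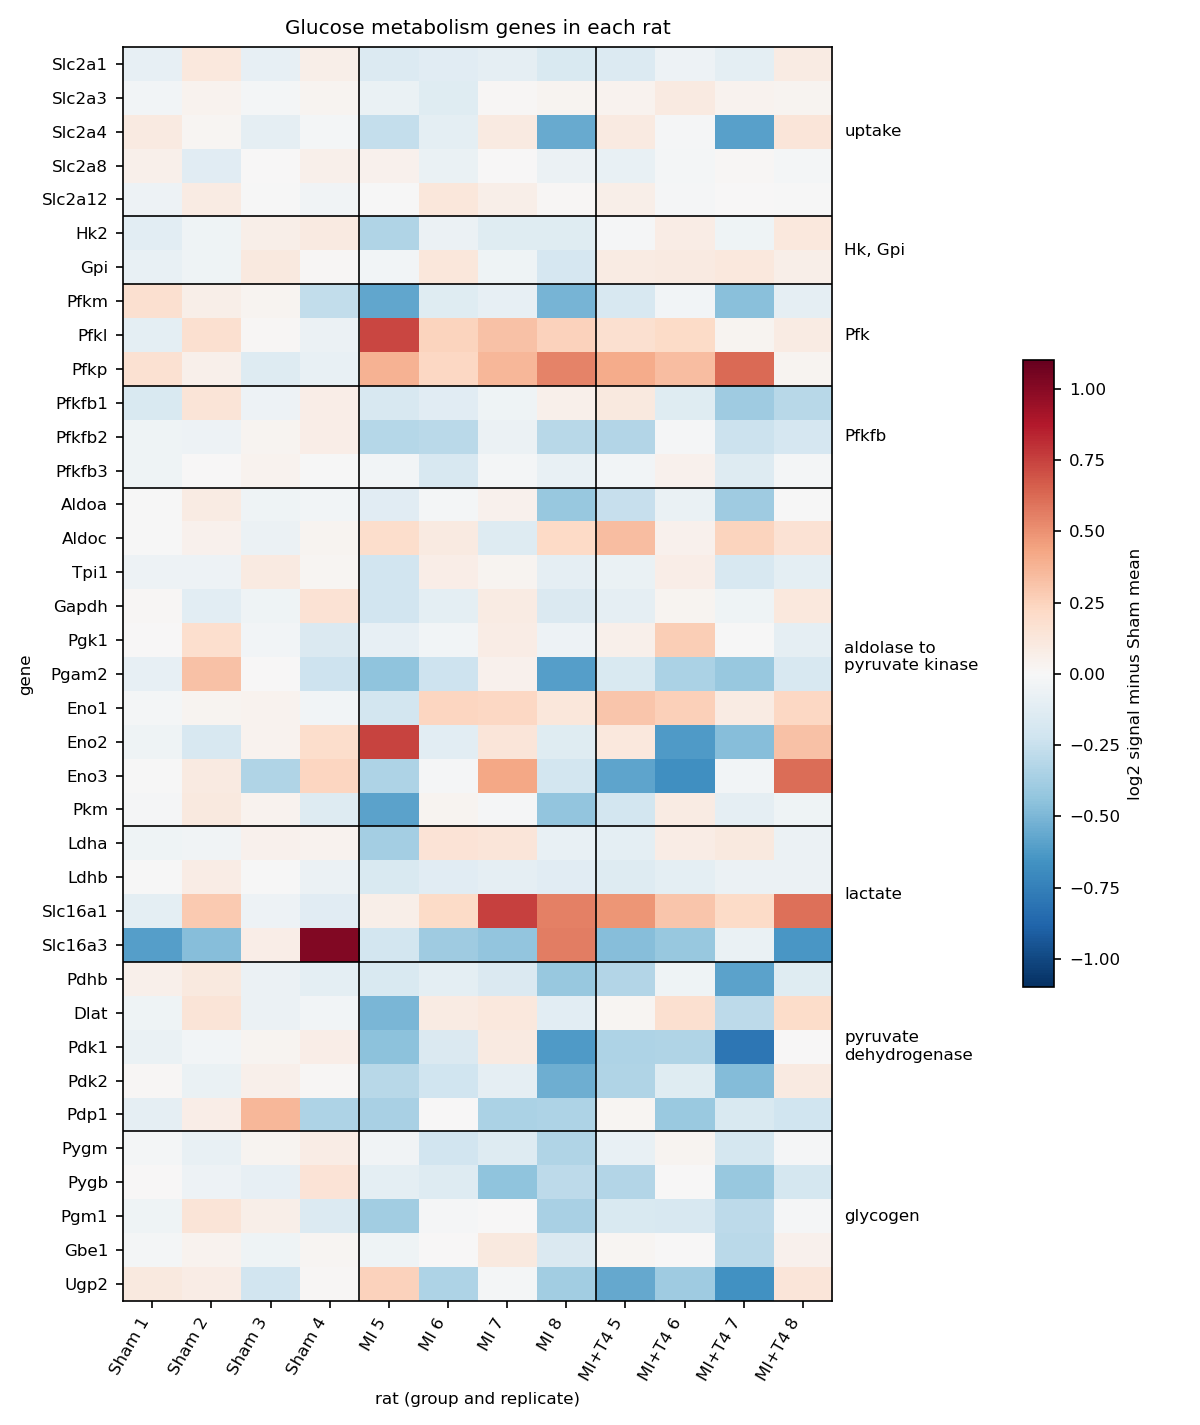
Log2 signal of each of the 37 members in each of the 12 rats after subtraction of the Sham mean of that gene, ordered by role (red is higher and blue lower than Sham). Rats MI 5, MI 8 and MI+T4 7 carry many of the dark blue cells, for example in Pfkm, Slc2a4, Pdk1 and Pdk2. Pfkl and Pfkp are red in all 4 MI rats.

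Glucose uptake genes did not pass in any comparison. Slc2a4, the insulin-responsive transporter GLUT4, was 12.57, 12.49, 12.37 and 12.45 in Sham, 12.21, 12.36, 12.57 and 11.92 in MI, and 12.57, 12.46, 11.87 and 12.60 in MI+T4. It was lowest in MI+T4 rat 7 and MI rat 8, followed by MI rat 5, with a log2 difference of -0.20 in MI (limma adjusted p = 0.470). Slc2a1, the basal transporter GLUT1, was 7.84, 8.04, 7.84 and 7.99 in Sham, 7.78, 7.80, 7.83 and 7.76 in MI, and 7.78, 7.87, 7.82 and 8.02 in MI+T4. The MI rats lay under all Sham rats, by as little as 0.01, with a log2 difference of -0.13 (limma adjusted p = 0.428). The difference was -0.25 on the arrays of technical replicate 1 and -0.02 on those of technical replicate 2. The arrays of a rat correlated at -0.10 for this probe, so the difference depended on the array. Slc2a3, Slc2a8 and Slc2a12 differed from Sham by -0.04 to 0.05 in both infarcted groups.

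Hexokinase 2, the insulin-regulated form of heart and skeletal muscle, gave 1 of the 3 separations between MI+T4 and MI. Hk2 was 9.08, 9.15, 9.26 and 9.29 in Sham, 8.86, 9.13, 9.06 and 9.06 in MI, and 9.18, 9.28, 9.15 and 9.31 in MI+T4. All MI+T4 rats lay above all MI rats and inside or just above the Sham range. The log2 difference between MI+T4 and MI was 0.20 (SE 0.061, 1.15-fold), the highest of the members and past an unadjusted p of 0.05, but the limma adjusted p was 0.307. Against Sham the difference was -0.17 in MI (limma adjusted p = 0.143) and 0.03 in MI+T4. Gpi, phosphoglucose isomerase, differed by -0.03 in MI and 0.09 in MI+T4 from Sham and passed in neither.

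From aldolase to pyruvate kinase, 0 of the 10 measured members passed in any comparison. Aldoc, the brain-type aldolase, was 8.28, 8.33, 8.22 and 8.31 in Sham, 8.48, 8.38, 8.14 and 8.50 in MI, and 8.62, 8.33, 8.53 and 8.44 in MI+T4. Eno1, the enolase of many tissues, was 9.89, 9.94, 9.95 and 9.88 in Sham, 9.71, 10.15, 10.14 and 10.04 in MI, and 10.22, 10.18, 10.00 and 10.14 in MI+T4. These were the 2 members (5.41%) without overlap between MI+T4 and Sham, beside 4.76% of probes in either direction and 2.33% in this one, and for Aldoc the nearest rats of the groups were equal after rounding. The log2 differences in MI+T4 were 0.20 for Aldoc (limma adjusted p = 0.210) and 0.22 for Eno1 (limma adjusted p = 0.154). Eno1 passed when only Sham and MI+T4 rats entered the fit (limma adjusted p = 0.0194).

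Their muscle counterparts were Aldoa, the muscle aldolase, and Eno3, the muscle enolase. Aldoa was 14.98, 15.07, 14.94 and 14.95 in Sham, 14.86, 14.96, 15.03 and 14.57 in MI, and 14.73, 14.91, 14.59 and 14.98 in MI+T4. MI rat 8 and MI+T4 rat 7 were lowest, and the differences from Sham were -0.13 in MI and -0.18 in MI+T4. Its other probe gave -0.14 and -0.06, and neither probe passed. Eno3 spread widely within groups, with an SD of 0.243 for Sham, 0.337 for MI and 0.595 for MI+T4. It was 12.11, 12.21, 11.78 and 12.35 in Sham, 11.77, 12.10, 12.54 and 11.91 in MI, and 11.53, 11.44, 12.08 and 12.73 in MI+T4, with both the lowest and the highest rats in MI+T4. Eno2, the neuronal enolase, was 8.77, 8.64, 8.86 and 9.01 in Sham, 9.56, 8.70, 8.95 and 8.69 in MI, and 8.94, 8.20, 8.35 and 9.14 in MI+T4. MI rat 5 stood above the rest. Between MI+T4 and MI its log2 difference was -0.32, which did not pass (limma adjusted p = 0.676). It was -0.13 without MI rat 5 and -0.48 without MI+T4 rat 8.

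The 3 steps after aldolase stayed within 0.10 of Sham in both infarcted groups. For Tpi1, triose phosphate isomerase, Gapdh, glyceraldehyde 3-phosphate dehydrogenase, and Pgk1, phosphoglycerate kinase, the differences lay between -0.10 and 0.06. Pgam2, the muscle phosphoglycerate mutase, and Pkm, the pyruvate kinase of muscle and many other tissues, had lower means in MI, with log2 differences of -0.31 (limma adjusted p = 0.0961) and -0.25 (limma adjusted p = 0.130). Both were lowest in MI rats 5 and 8, at 12.30 and 12.13 for Pgam2 and at 11.44 and 11.60 for Pkm. Each passed when MI rat 7 was left out, and Pkm also without MI rat 6.

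Pyruvate dehydrogenase is held in check by the kinases Pdk1 and Pdk2 and freed by the phosphatase Pdp1, and Pdhb and Dlat encode subunits of the complex itself. The 5 measured members of this step had a median of -0.26 in MI and of -0.22 in MI+T4 against Sham, with 0 of 5 past the test in either. Pdk2 was 13.07, 12.98, 13.11 and 13.07 in Sham, 12.75, 12.84, 12.96 and 12.52 in MI, and 12.72, 12.92, 12.58 and 13.15 in MI+T4. The MI rats all lay under the Sham rats, and MI+T4 rat 8 was above them. Its log2 difference in MI was -0.29 (SE 0.086, limma adjusted p = 0.0590). It passed under 2 other settings of the fit and without MI rat 7 (limma adjusted p from 0.0150 to 0.0477).

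Pdhb, a subunit of the first enzyme of the complex, was 14.35, 14.40, 14.23 and 14.18 in Sham, 14.12, 14.18, 14.13 and 13.87 in MI, and 13.97, 14.24, 13.70 and 14.16 in MI+T4. The highest MI rat lay just under the lowest Sham rat, both 14.18 after rounding, with log2 differences of -0.22 in MI (limma adjusted p = 0.164) and -0.27 in MI+T4 (limma adjusted p = 0.115). Pdk1 differed by -0.29 in MI and by -0.36 in MI+T4 (limma adjusted p = 0.203 and 0.145), and MI+T4 rat 7 was lowest at 12.19 while MI rat 7 was highest at 13.08. Pdp1, at -0.26 in MI, and Dlat, at -0.10, did not pass, although Pdp1 did without Sham rat 4 or MI rat 6. Dlat had its highest value, 12.24, in MI+T4 rat 8 and its lowest, 11.53, in MI rat 5. The kinases and the phosphatase, which act against each other, thus all had lower means than in Sham.

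Glycogen is broken down by the phosphorylases Pygm, the muscle form, and Pygb, the brain form also made in heart, and built through Pgm1, Ugp2 and the branching enzyme Gbe1. None of the 5 measured genes passed in any comparison, with medians of -0.18 in MI and -0.16 in MI+T4 against Sham. Pygb was 13.66, 13.60, 13.57 and 13.81 in Sham, 13.55, 13.52, 13.22 and 13.37 in MI, and 13.34, 13.66, 13.24 and 13.47 in MI+T4. Its MI rats lay under all Sham rats and 1 MI+T4 rat lay inside the Sham range, with log2 differences of -0.25 in MI (limma adjusted p = 0.0601) and -0.23 in MI+T4 (limma adjusted p = 0.147). Pygm was 14.50, 14.44, 14.55 and 14.60 in Sham, 14.48, 14.31, 14.38 and 14.19 in MI, and 14.44, 14.55, 14.33 and 14.51 in MI+T4. MI rat 5 reached into the Sham range, and the difference in MI was -0.18 (limma adjusted p = 0.0804), which passed without that rat. Pygb passed in MI without MI rat 6 (limma adjusted p = 0.0380) and in MI+T4 without MI+T4 rat 6.

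Ugp2, which makes UDP-glucose for glycogen, showed its larger difference in the treated rats. It was 12.54, 12.51, 12.22 and 12.44 in Sham, 12.68, 12.09, 12.41 and 12.05 in MI, and 11.87, 12.04, 11.76 and 12.56 in MI+T4. In MI+T4 3 rats lay under the lowest Sham rat and rat 8 above the highest, with a log2 difference of -0.37 (SE 0.120, limma adjusted p = 0.156). Without MI+T4 rat 8 it passed at -0.54 (limma adjusted p = 0.00312). Pgm1 differed by -0.18 in MI and -0.16 in MI+T4, and Gbe1 by -0.02 and -0.05.

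T4 treatment after MI gave no call among these genes. Against MI, 0 of 37 members passed in MI+T4, beside 0% of all probes, and the smallest limma adjusted p of a member was 0.307. The members also gave 0 calls in the fits that called probes outside the set. Examples are a nested F rule with 94 probes and the fit without MI rat 7 with 76. At an unadjusted limma p under 0.05 there were 3 members, namely Hk2 higher and Pfkl and Ugp2 lower, which is 8.11% beside 7.41% of probes. The rats of MI+T4 and MI did not overlap in 3 members (8.11%), beside 2.99% of probes, namely Hk2 and Slc2a3 higher (5.41% beside 1.63%) and Pfkl lower (2.70% beside 1.36%). For Slc2a3, the GLUT3 transporter of neurons and other cells, the log2 difference was 0.09, the arrays of a rat correlated at -0.51, and MI rats read 7.96, 7.90, 8.05 and 8.06 beside 8.07, 8.13, 8.07 and 8.06. The median log2 difference of the members was 0.03, with 23 of 37 (62.2%) above 0 beside 51.9% of probes.

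Against Sham, the MI+T4 rats had 1 member called, Pfkp (2.70% beside 1.26% of probes called and 0.719% called higher). At an unadjusted limma p under 0.05 there were 14 members, 4 higher and 10 lower, or 37.8% beside 10.2% of probes. The same Sham rats served for MI, so the 2 comparisons with Sham are not independent. The median of the members was -0.07 and 25 of 37 lay below 0 (67.6% beside 51.3% of probes). The count of members called was 0 without Sham rat 3, Sham rat 4, MI+T4 rat 5 or MI+T4 rat 7, beside 0.431% to 0.799% of probes. It was 3 without MI+T4 rat 6 (Pfkfb2, Pdhb and Pygb, all lower), beside 0.808%, and 5 without MI+T4 rat 8, beside 2.60%. Without rat 8 the 5 were Pfkp, higher, and Pdhb, Pdk1, Pdk2 and Ugp2, lower. Rat 8 of this group was the highest of the 12 rats for 5 members.

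Among the infarcted rats, 3 were lowest for the most members. MI rat 5 was the lowest of the 12 rats for 10 of the 37 members, and MI rat 8 and MI+T4 rat 7 for 6 each, while each of the other 9 rats was lowest for 1 to 3. Over the 8 isoforms prominent in striated muscle (Slc2a4, Hk2, Pfkm, Aldoa, Pgam2, Eno3, Ldhb and Pygm), the median difference from the Sham mean was -0.29 in MI rat 5, -0.37 in MI rat 8 and -0.29 in MI+T4 rat 7. In the other infarcted rats it lay between -0.16 and -0.01. Over the pyruvate dehydrogenase genes the medians of these 3 rats were -0.36, -0.43 and -0.48, and MI+T4 rat 5 gave -0.32. The 9 other measured isoforms, listed as prominent outside adult striated muscle, were Slc2a1, Pfkl, Pfkp, Aldoc, Eno1, Eno2, Ldha, Pygb and Slc16a3. Of these, Ldha and Slc16a3 are also known from skeletal muscle, so the name of the list is loose. The median over the 9 was -0.11 in MI rat 5 and 0.04 to 0.13 in the other infarcted rats.

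The same 3 rats had the highest fibroblast markers. The summed linear level of 9 fibroblast markers was 2.14, 1.75 and 1.51 times the Sham mean in MI rat 5, MI rat 8 and MI+T4 rat 7, beside 0.869 to 1.14 in Sham and 0.853 to 1.19 in the other infarcted rats. In MI 2 of the 9 rose, Pdgfra and Col3a1. The summed cardiomyocyte markers of the 3 rats were 0.942, 1.04 and 1.06 of the Sham mean, in the same order. In Sham these sums lay between 0.988 and 1.02, and in the other infarcted rats between 0.969 and 1.03. The summed red blood cell markers were 1.13 to 2.01 in MI and 1.19 to 1.63 in MI+T4 beside 0.870 to 1.14 in Sham, with 3 of 5 called higher in each comparison with Sham. Of 4 atrial muscle markers 3 rose in MI (Nppa, Dkk3 and Pam) and 2 in MI+T4 (Nppa and Pam). Their sums were 1.51 to 3.53 in MI and 1.09 to 5.38 in MI+T4 beside 0.422 to 1.59 in Sham. The paper lists Nppa, Dkk3 and Pam among the genes altered by MI in non-infarcted ventricle, and whether atrial tissue was present was not tested. The phosphofructokinase signals of MI rats 5 and 8 and MI+T4 rat 7 stood apart only in part. Pfkl was highest of the 12 rats in MI rat 5, and Pfkp in MI+T4 rat 7 and MI rat 8. Pfkp in MI rat 5, at 11.12, lay under MI+T4 rat 5, at 11.14. Pfkp minus Pfkm was 0.96 to 1.09 in the 3 rats and 0.13 to 0.58 in the other infarcted rats. For Pfkl alone, MI rat 8 lay with the other MI rats and MI+T4 rat 7 was the lowest of its group. The part of these cell types in the lower and in the higher values of the members was not tested.

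These 3 rats were also left out together, a setting chosen with earlier results known. Since they were picked as the lowest ones, a move of the members upward follows in part from the choice, and 2 MI rats remained, so the number of calls (0 members, beside 0.382% of probes) is not read as a result. Of the members that lay under Sham without overlap, Pygb then differed from Sham by -0.29, Pfkfb2 by -0.18 and Pdk2 by -0.16. Pdhb differed by -0.14 and both Slc2a1 and Ldhb by -0.11. The sign of these 6 was fixed in advance, since every MI rat lay under every Sham rat, so it is not read as a result. The differences of Slc16a1, Pfkp and Pfkl were then 0.48, 0.30 and 0.28, with limma adjusted p of 0.0542, 0.172 and 0.0997. For Pfkl and Pfkp the sign was likewise fixed, since every MI rat lay above every Sham rat. Slc16a1 had been named for its rise in these same rats. In MI+T4 against Sham, Slc16a1 and Eno1 passed without the 3 rats (limma adjusted p = 0.0162 and 0.0105).

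**Figure D5:**
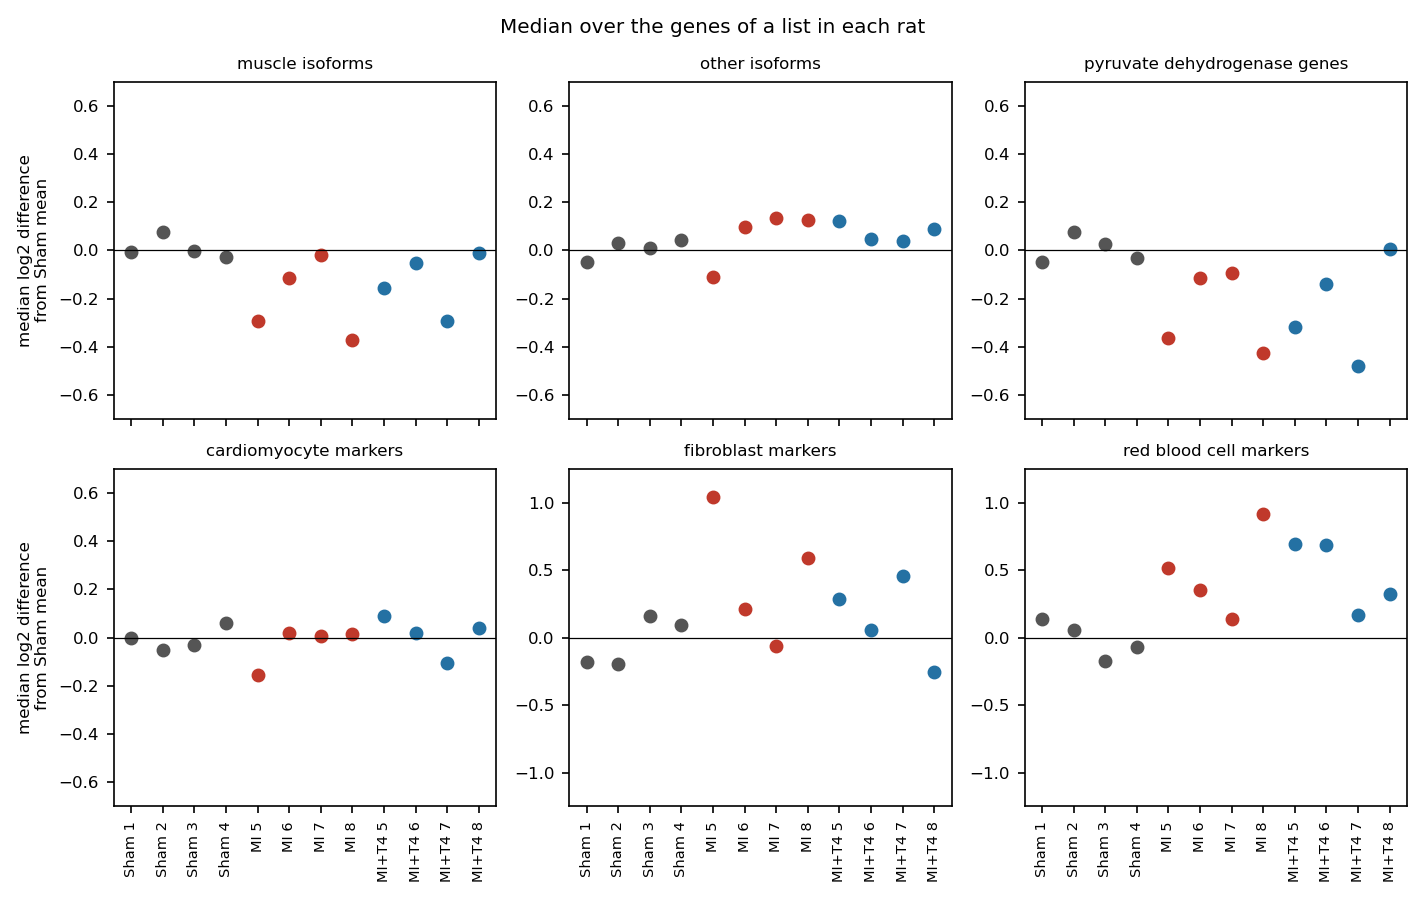
Median log2 difference from the Sham mean over the genes of a list in each of the 12 rats, for 3 groups of members (muscle isoforms, other isoforms, pyruvate dehydrogenase genes) and 3 marker lists. The vertical axes of the fibroblast and red blood cell panels span a wider range than the others. MI 5, MI 8 and MI+T4 7 are lowest for the muscle isoforms, between -0.37 and -0.29, and highest for the fibroblast markers, between 0.45 and 1.04.

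Across isoforms in MI, 0 of the 8 striated muscle forms passed, with a median log2 difference of -0.17. Of the 9 measured other forms 2 rose, Pfkl and Pfkp (22.2%, beside 1.89% of probes), with a median of 0.09. With 3.61% of all probes called in MI, 0 calls among 8 genes is not read as a result. In MI+T4 the medians were -0.13 and 0.00 against Sham. The higher median in MI did not hold for each of the 9 forms, since Slc2a1 and Pygb were lower with no overlap.

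Around the core pathway, few further genes changed, and 0 of them passed between MI+T4 and MI. Over the 97 measured genes of the pathway lists described next, 6 were called in MI against Sham (6.19% beside 3.61% of probes) and 3 in MI+T4 against Sham (3.09% beside 1.26%). Without overlap between MI and Sham were 15 (15.5% beside 5.80%). Among 17 other glycolytic and gluconeogenic genes, 2 fell in MI (11.8%). Ldhd, the D-lactate dehydrogenase of mitochondria, fell to 0.709-fold (limma adjusted p = 0.0025), with 12.04 to 12.17 in Sham and 11.35 to 11.94 in MI. Slc37a4, the glucose 6-phosphate transporter of the endoplasmic reticulum, fell to 0.797-fold (limma adjusted p = 0.0049), with no overlap between the groups. In MI+T4 their differences from Sham were -0.21 and -0.22 and did not pass.

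In the pentose phosphate and polyol pathway, 3 of 8 genes changed in MI (37.5% beside 3.61% of probes). Prps2, which makes phosphoribosyl pyrophosphate for nucleotides, rose 1.49-fold (limma adjusted p = 0.00631), with 9.18 to 9.35 in Sham and 9.48 to 10.40 in MI. Rpia, ribose 5-phosphate isomerase, and Sord, sorbitol dehydrogenase, fell to 0.814-fold and 0.832-fold (limma adjusted p = 0.0204 and 0.0449). For all 3 the MI and Sham rats did not overlap, and none passed in MI+T4 against Sham.

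Of 15 genes of AMP-activated kinase and glucose sensing, Klf15, a transcription factor that promotes Slc2a4 expression, fell in both infarcted groups, to 0.785-fold in MI and 0.739-fold in MI+T4 (limma adjusted p = 0.0341 and 0.0156). Prkag2, a regulatory subunit of AMP-activated kinase, rose 1.20-fold in MI+T4 (limma adjusted p = 0.0368) and had 0.22 in MI (limma adjusted p = 0.0523). In the malate-aspartate and glycerol phosphate shuttles, which carry the electrons of glycolytic NADH into mitochondria, Got2 fell to 0.817-fold in MI+T4 (limma adjusted p = 0.0475), 1 of 8 genes.

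No gene passed in any comparison among 13 of insulin signalling to Slc2a4, 16 other glycogen genes, 12 other genes of pyruvate dehydrogenase and the pyruvate carrier, and 8 other transporters and sugar kinases. Pdk4, a pyruvate dehydrogenase kinase induced by fasting and fatty acids, varied widely, from 9.22 to 11.11 in MI and 9.36 to 11.43 in MI+T4 beside 10.44 to 10.75 in Sham. Of 12 other hypoxia-inducible genes 1 changed in MI, Vegfa, the endothelial growth factor, which fell to 0.768-fold (limma adjusted p = 0.0201), and the median of the list was 0.08. Of 12 genes known to respond to thyroid hormone in heart, 1 was called, Ucp2, a mitochondrial uncoupling protein, which rose 1.39-fold in MI and 1.37-fold in MI+T4 (limma adjusted p = 0.00116 and 0.00216). In MI+T4 against MI, Myh6, the fast myosin heavy chain, differed by 0.13 and Atp2a2, the calcium pump SERCA2, by 0.14, and neither passed (limma adjusted p = 0.512 and 0.647).

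Promoter windows were found for 33 of the 37 measured members. ACGTG on either strand was in 15 of them (45.5%, beside 16.6% of all windows) and AGGTCA in 3 (9.09%, beside 14.1%), namely Pfkfb2, Ldhb and Dlat. Each member gave 1 window. The windows set beside them were all those supplied, not limited to genes on the array and not matched in base content. The difference between these shares was not tested. The 15 members with ACGTG had a median log2 difference of -0.10 in MI, with 1 called (Slc16a1), and the 18 without it -0.09, with 3 called. The members with and without these letters thus covered nearly the same range, -0.33 to 0.40 and -0.31 to 0.39.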

How the data were processed

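Processed values of 24 Illumina RatRef-12 arrays, 2 for each of 12 rats (4 Sham, 4 MI, 4 MI+T4), were used. The authors applied a variance stabilizing transformation like log2 and robust spline normalization, and the deposited values are read as log2. A table of non-normalized signals with 48 columns named by BeadChip position was not used, since no source pairs these with samples, so the detection filter of the methods could not be applied. Probes were named through Entrez identifiers and RefSeq (GRCr8), which gave 13793 of 22523 probes a symbol. The consensus correlation of arrays within a rat came from duplicateCorrelation, and eBayes followed (R 4.3.3, limma 3.58.1, statmod 1.5.0). P-values had Benjamini-Hochberg adjustment for each comparison at 5%. Rat means were tested by limma and by exact permutation (scipy 1.17.1, Python 3.11.15). The members and all gene lists were chosen with earlier results of these data known. Values in every rat are given for members that were called, did not overlap with Sham or were among the 3 largest differences of a comparison, for their isoform partners, and for Hk2 and Slc2a3, which were added for their separation from MI. Summed marker levels are sums of 2 to the power of the log2 signal over the Sham mean. Alternatives were rat means, nested F, a variance prior that was trended and robust, a BeadChip block, each BeadChip alone, quantile normalization, brighter probes, the mean over the probes of a gene, only the compared groups, each rat left out, 3 rats left out together and the replicate number as a block. The fit was run on simulated data with known changes. That run set limits on the recovery of changes and on their median error, and none on false calls. Promoter windows are the upstream part of RefSeq sequences supplied for GRCr8. Figures were drawn with matplotlib 3.10.9.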

Additional observations from a re-analysis of the deposited data

Results flagged for a closer look

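Single rats stood apart from the other 3 of their group in 6 of the 111 combinations of member and group, where chance gives about 5.55. The distance to the nearest rat took most of the range of the group in each. Pfkl was 9.68 in MI rat 5, with the other MI rats between 9.19 and 9.27. Pfkfb2 was 8.09 in MI rat 7, with the others up to 7.86, and this rat narrowed the fall of Pfkfb2 in MI. Slc2a3 was 8.13 in MI+T4 rat 6, Dlat 12.18 in Sham rat 2, Pdp1 11.31 in MI rat 6 and Gbe1 10.77 in MI+T4 rat 7.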

How the results depend on the processing

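The count of members called between MI and Sham was 4, beside 3.61% of probes. It was 0 with rat means (0% of probes) and with the arrays of either technical replicate alone (0% and 0.0133%). It was also 0 without MI rats 5 and 8 and MI+T4 rat 7 together (0.382%). When single rats were left out it was 1 to 9, beside 0.857% to 6.99% of probes. The median of the members was -0.0224 without the 3 rats together, which had the lowest values, and -0.146 to -0.0761 without single rats. Between MI+T4 and Sham the count of 1 was 0 with rat means, the BeadChip as block, either BeadChip alone or brighter probes, 2 with nested F, with only the compared groups and without the 3 rats together, and 0 to 5 without single rats. Which gene was called also changed: with quantile normalization it was Slc16a1, and with only the compared groups, as without the 3 rats together, Eno1 and Slc16a1. In MI+T4 against MI it was 0 under every alternative, with 0 to 94 of all probes called. MI and MI+T4 share the replicate numbers 5 to 8, and no label says that same-numbered rats belong together. Deviations of same-numbered rats correlated at 0.111, 0.254, -0.534 and -0.484, and those of the other pairs at -0.318 to 0.55. With so few rats, these values cannot show whether rats of the same number were handled together. With the replicate block 0 members and 37 of all probes were called between MI+T4 and MI, beside 0 probes without it and 0 with the block on averaged arrays. Of 449 alternative values for 23 member differences, 382 kept direction and side of the limit, 43 lost and 13 gained a call, and 11 reversed, all between MI+T4 and MI and near 0. Pfkp gave 0.017 (first BeadChip) and, without single rats, -0.127 to 0.073, with 0.022 without MI rat 8. Pfkfb2 gave -0.005 to 0.114 without single rats. Slc16a1 gave -0.023 (second BeadChip), -0.023 (quantile), -0.021 (without the 3 rats together) and -0.105 to 0.126 without single rats, below 0 without MI rat 5 or 6 or MI+T4 rat 5 or 8. The causes were not tested. Nothing here measures signal over background.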
